A study of Mus musculus with 26 samples.

Results

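The promoters of 8 genes that write, maintain or remove DNA methylation were followed through sequential ChIP in mouse embryonic stem cells (ESCs). The genes were Dnmt1, Dnmt3a, Dnmt3b, Dnmt3l, Uhrf1, Tet1, Tet2 and Tet3, out of 26180 genes of the mouse annotation. In each deposited table of regions, a region was taken when it overlapped 1.5 kb either side of an annotated start site of the gene, and the one with the most overlap was kept. All 8 genes had such a region in the table of K27-K4 regions of E14 cells, which held a promoter region for 17321 genes. A K4-K27 reChIP took chromatin through an H3K4me3 antibody and then an H3K27me3 antibody, and K27-K4 used the reverse order, so that each enriches nucleosomes carrying both marks. A portion taken after the first step gave total H3K4me3 or total H3K27me3, and an IgG–IgG reChIP served as the background.

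The cells were E14 ESCs of WT genotype, not clonal, profiled in replicates 1 and 2, and clones with source E14, namely WT clones 57 and 58 and DPPA2/4 DKO clones 43 and 53, which lack both Dppa2 and Dppa4. All were grown in serum and LIF on gelatin. Each clone library stands for 1 clone, so a difference between genotypes rests on 2 clones against 2. E14 replicates 1 and 2 were sequenced in batches A and B and all clone libraries in batch C, so differences between E14 cells and clones cannot be told apart from the batch. IgG–IgG was available for E14 replicate 1 and WT clone 57.

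DNA methylation in mammals is set on unmethylated DNA by the enzymes DNMT3A and DNMT3B, helped by the catalytically inactive DNMT3L, and is copied after replication by DNMT1, which UHRF1 recruits to hemimethylated DNA. TET1, TET2 and TET3 oxidise the methyl group and so start its removal. In ESCs, promoters rich in CpG carry H3K4me3, and those that also carry H3K27me3, laid down by Polycomb, are called bivalent.

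The promoters of the 8 genes differ in CpG content, and the 250 bases before 6 of their start sites are printed here because they include dense and sparse sites and the separate start sites of Dnmt3a described below. The sequences are from RefSeq, assembly GRCm38.p6, read 5′ to 3′ on the strand of the gene, with each CG in capitals.
Dnmt3a upstream start, chr12:3806730-3806979 (+): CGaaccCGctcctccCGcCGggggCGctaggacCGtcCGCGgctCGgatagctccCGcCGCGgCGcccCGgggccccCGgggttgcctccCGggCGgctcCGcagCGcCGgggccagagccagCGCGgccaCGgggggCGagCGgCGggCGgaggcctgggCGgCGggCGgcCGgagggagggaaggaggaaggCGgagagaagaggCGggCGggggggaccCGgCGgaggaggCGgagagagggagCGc
Dnmt3a internal start, chr12:3891494-3891743 (+): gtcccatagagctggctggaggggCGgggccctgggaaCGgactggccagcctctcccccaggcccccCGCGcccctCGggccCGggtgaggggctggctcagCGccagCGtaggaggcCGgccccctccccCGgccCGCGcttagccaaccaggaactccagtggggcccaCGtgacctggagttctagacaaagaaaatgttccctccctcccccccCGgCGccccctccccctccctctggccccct
Dnmt3b, chr2:153649199-153649448 (+): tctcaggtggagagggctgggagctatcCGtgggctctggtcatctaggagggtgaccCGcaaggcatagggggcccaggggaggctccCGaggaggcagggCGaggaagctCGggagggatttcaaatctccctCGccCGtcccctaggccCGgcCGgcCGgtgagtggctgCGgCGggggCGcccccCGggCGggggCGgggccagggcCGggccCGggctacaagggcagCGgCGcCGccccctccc
Tet2, chr3:133544391-133544640 (-): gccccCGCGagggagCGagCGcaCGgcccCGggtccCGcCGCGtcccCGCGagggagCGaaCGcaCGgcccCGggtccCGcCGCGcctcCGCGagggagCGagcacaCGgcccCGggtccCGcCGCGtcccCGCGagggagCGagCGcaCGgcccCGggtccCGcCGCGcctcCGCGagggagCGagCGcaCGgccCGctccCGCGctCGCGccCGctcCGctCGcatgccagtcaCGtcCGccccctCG
Tet3 downstream start, chr6:83441679-83441928 (-): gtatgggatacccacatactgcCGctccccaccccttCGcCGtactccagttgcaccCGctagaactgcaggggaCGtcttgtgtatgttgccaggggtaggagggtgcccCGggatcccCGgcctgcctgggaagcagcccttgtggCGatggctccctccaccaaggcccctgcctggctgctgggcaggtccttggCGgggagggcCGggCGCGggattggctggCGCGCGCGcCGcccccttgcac
Dnmt3l, chr10:78049592-78049841 (+): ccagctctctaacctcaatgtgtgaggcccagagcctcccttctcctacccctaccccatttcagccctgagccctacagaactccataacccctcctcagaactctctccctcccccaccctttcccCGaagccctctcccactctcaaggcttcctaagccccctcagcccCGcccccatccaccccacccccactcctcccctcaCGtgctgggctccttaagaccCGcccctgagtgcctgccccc
Counted over 300 bases (250 before the start site and 50 after it), the Tet2 window held 57 CG dinucleotides, and 0.152% of 32851 RefSeq promoter windows held as many. The upstream start sites of Dnmt3a held 46 and 47, as many as 1.65% and 1.44% of windows did. Dnmt3b had 30, the downstream Tet3 start site 22 and the internal Dnmt3a start site 18, which 11.7%, 23.1% and 29.7% of windows reached. The 3 start sites of Dnmt1 had 33, 12 and 2, and those of Uhrf1 with a window 12 and 33. The window of Tet1 held 17, and the 3 windows of Dnmt3l held 6, 4 and 3, below the median of 7 over all windows. A window was available for 15 of the 17 start sites of the 8 genes. The upstream Tet3 start site at 83456392 and the Dnmt3l start site at 78049959 had none.

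H3K4me3 regions were present at every one of these promoters, while H3K27me3 and K27-K4 regions in the clones were present at only a few. Each of the 8 genes had a region in the total H3K4me3 tables of E14, WT and DKO cells, in the E14 K27-K4 table and in the K4-K27 tables of both clone genotypes. The E14 K4-K27 table had regions at 6 of them, and Tet1 and Dnmt3l had none. Regions of total H3K27me3 were listed at Dnmt3b and Tet3 in E14 cells, at Dnmt3a and Tet3 in WT clones, and at Dnmt3b and Tet3 in DKO clones. K27-K4 regions in WT clones were listed at Dnmt3a and Tet3 alone, and in DKO clones at Dnmt3a, Dnmt3b, Dnmt3l and Tet3. Tet3 was thereby the one gene with a region in all 12 tables, Dnmt3a and Dnmt3b had one in 10, Tet1 in 6 and the other genes in 7. The start site of Dnmt1 at chr9:20959888 (GRCm38/mm10), upstream of the others, had no region in any table. With a half-width of 500 bp only the E14 total H3K27me3 table changed, from 2 genes to 1. The share over all genes was counted for the E14 K27-K4 table only, so the other counts cannot be set against the typical gene. Among the 28 further genes of DNA methylation counted below, K27-K4 regions were listed at 11 in WT and 9 in DKO clones.

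Levels are given as log2 RPM per kb, where RPM are reads scaled to the size of the library and the kb are those of the region, so they compare genes per length, and a broad region averages its promoter with its flanks. They were read in all libraries over the regions of the E14 K27-K4 table, which were called in no clone library. As a check of cell identity, 7 of 7 pluripotency genes had a total H3K4me3 region in E14 cells. So did 24 of the 28 further genes of DNA methylation counted below, so the check says little about the cell type. The reads behind the values, recovered from the values themselves, numbered between 6741244 and 47903462 per library, with a median of 16875025. They are not the totals of aligned reads that the paper gives. Both extremes were E14 K27-K4 libraries, the lowest being replicate 1 and the highest replicate 2. The promoter of Dppa2 carried total H3K4me3 of 3.28 and 2.45 in the DKO clones and 3.07 and 1.85 in the WT clones, and a promoter mark does not test the deletion.

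Dnmt3a, a de novo methyltransferase, had the highest mean H3K27me3 of the members in the clones over these regions, in which Tet3 is averaged over a far wider stretch. At chr12:3801601-3811200 its total H3K27me3 was −0.25 and −0.09 in E14 replicates 1 and 2, 1.36 and 0.87 in WT clones 57 and 58, and 1.42 and 1.27 in DKO clones 43 and 53. Its K4-K27 values were 1.54 and 1.77 in E14 cells, 3.54 and 2.69 in WT and 3.15 and 2.21 in DKO clones. K27-K4 gave 1.64 and 3.05 in E14 cells, 3.35 and 2.41 in WT and 3.01 and 2.69 in DKO clones. Every reChIP value lay above the IgG–IgG values of −0.14 in E14 replicate 1 and 0.43 in WT clone 57. Among the 17321 gene promoters, the mean K27-K4 of Dnmt3a stood at percentile 95.3 in WT and 98.5 in DKO clones, and its total H3K27me3 at 93.3 and 96.6. Its total H3K4me3 of 0.26 and 0.31 in E14 cells, 2.15 and 0.87 in WT and 1.32 and 1.12 in DKO clones was below the median promoter in each.

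Tet3, a dioxygenase prominent in the oocyte and zygote, lay in a single region of 28500 bp, chr6:83433751-83462250, that covered both of its start sites. Its total H3K27me3 was 0.35 and 0.46 in E14 cells, 1.03 and 0.50 in WT and 0.94 and 0.76 in DKO clones. Total H3K4me3 was 0.09 and −0.09, 1.11 and 0.31, and 0.40 and 0.31 in the same order. Both H3K27me3 values thus lay above both H3K4me3 values in E14 cells and in DKO clones, and the marks overlapped in WT clones, over a region much wider than either promoter. At the start sites themselves, given below, this was not so. K4-K27 reached 1.88 and 1.72 in E14 cells, 1.86 and 1.44 in WT and 1.81 and 1.16 in DKO clones. K27-K4 was 1.45 and 2.70, 1.98 and 1.40, and 1.70 and 1.35, against IgG–IgG of −0.36 in E14 and −0.28 in WT.

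Dnmt3b, the other de novo enzyme, was intermediate. At chr2:153645751-153653250 total H3K27me3 was −0.07 and 0.00 in E14 cells, −0.16 and −0.36 in WT and 0.94 and 0.56 in DKO clones. Total H3K4me3 was 0.66 and 0.88 in E14 cells, 2.66 and 1.42 in WT and 2.12 and 1.74 in DKO clones. K4-K27 was 0.77 and 1.71, 2.89 and 1.77, and 2.88 and 2.08. K27-K4 was 1.31 and 2.69 in E14 cells, 1.61 and 1.12 in WT and 2.31 and 1.83 in DKO clones. Neither the H3K27me3 nor the K27-K4 difference between the genotypes was called, as given below. IgG–IgG was −0.12 in E14 and 0.48 in WT.

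Dnmt1, the maintenance methyltransferase, and Tet1 and Tet2, the dioxygenases of ESCs, carried strong H3K4me3 and little H3K27me3. At Dnmt1, chr9:20950651-20953650, total H3K4me3 was 1.55 and 1.93 in E14 cells, 3.83 and 2.36 in WT and 3.55 and 3.03 in DKO clones. Its mean stood at percentile 97.4 of gene promoters in E14 cells, 97.6 in WT and 98.8 in DKO clones. Total H3K27me3 of Dnmt1 was −1.30 and −2.26, −2.98 and −1.96, and −1.97 and −1.91, below IgG–IgG of −0.03 in E14 and 0.52 in WT. The reChIPs of this gene went apart: K4-K27 was −0.81 and 1.15 in E14 cells, 3.60 and 2.61 in WT and 3.31 and 2.65 in DKO clones, while K27-K4 was 1.19 and 2.00, −0.82 and 0.08, and −0.84 and −0.07. In the clones every K4-K27 value of Dnmt1 was thus above every K27-K4 value, and in E14 cells K27-K4 was the higher in both replicates.

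Tet1, at chr10:62883301-62888400, had total H3K4me3 of 1.14 and 1.97 in E14 cells, 3.52 and 2.10 in WT and 3.25 and 2.76 in DKO clones. Its total H3K27me3 was −1.72 and −2.06, −2.75 and −2.07, and −3.22 and −2.01. K4-K27 was −1.42 and 0.94 in E14 cells, 2.63 and 2.11 in WT and 2.95 and 2.59 in DKO clones. The reverse order gave 1.27 and 1.75, −0.07 and −1.05, and −0.89 and 0.06, with IgG–IgG at −0.32 in E14 and 0.44 in WT. The clone values of K27-K4 at Tet1 therefore all lay below the background library.
Tet2, at chr3:133542751-133545750, had total H3K4me3 of 1.34 and 2.08 in E14 cells, 3.75 and 2.28 in WT and 3.31 and 2.81 in DKO clones, and total H3K27me3 of −2.04 and −1.93, −1.88 and −1.64, and −2.78 and −1.31. K4-K27 at Tet2 was −0.65 and 1.81, 3.33 and 2.87, and 3.65 and 2.82. K27-K4 was 1.28 and 2.12 in E14 cells, 0.49 and 0.43 in WT and −0.57 and 0.79 in DKO clones, against IgG–IgG of −0.33 and 0.82. Among the start sites with a sequence window, which leave out the upstream one of Tet3, the promoter with the most CG dinucleotides was thus one with little total H3K27me3.

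Uhrf1, the partner of DNMT1, and Dnmt3l, the cofactor of the de novo enzymes, had lower total H3K4me3 than these 3 genes in the means of E14 cells and of either genotype. Over chr17:56302201-56307600, total H3K4me3 at Uhrf1 was 1.01 and 1.16 in E14 cells, 2.81 and 1.63 in WT and 2.65 and 2.24 in DKO clones, and total H3K27me3 was −1.88 and −2.26, −1.99 and −1.07, and −3.04 and −1.36. K4-K27 at Uhrf1 was −0.99 and 0.46, 2.42 and 1.79, and 2.33 and 1.61, while K27-K4 was 0.51 and 1.51, 0.56 and −0.13, and −0.32 and 0.45, with IgG–IgG at −0.05 and 0.18. At Dnmt3l, chr10:78048901-78053700, total H3K4me3 was 0.93 and 1.31, 2.51 and 1.44, and 2.60 and 2.27. In E14 cells Dnmt3l had K4-K27 of −1.33 and 0.45 and K27-K4 of 0.23 and 1.27 beside IgG–IgG of 0.06. In WT clones its K4-K27 was 1.32 and 0.74 and its K27-K4 −0.12 and 0.10, both orders above IgG–IgG of −0.49, and in DKO clones they were 2.57 and 1.40, and −0.11 and 0.82. Total H3K27me3 of Dnmt3l was −1.08 and −1.73, −1.15 and −1.37, and −2.46 and −1.26.

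**Figure D1:**
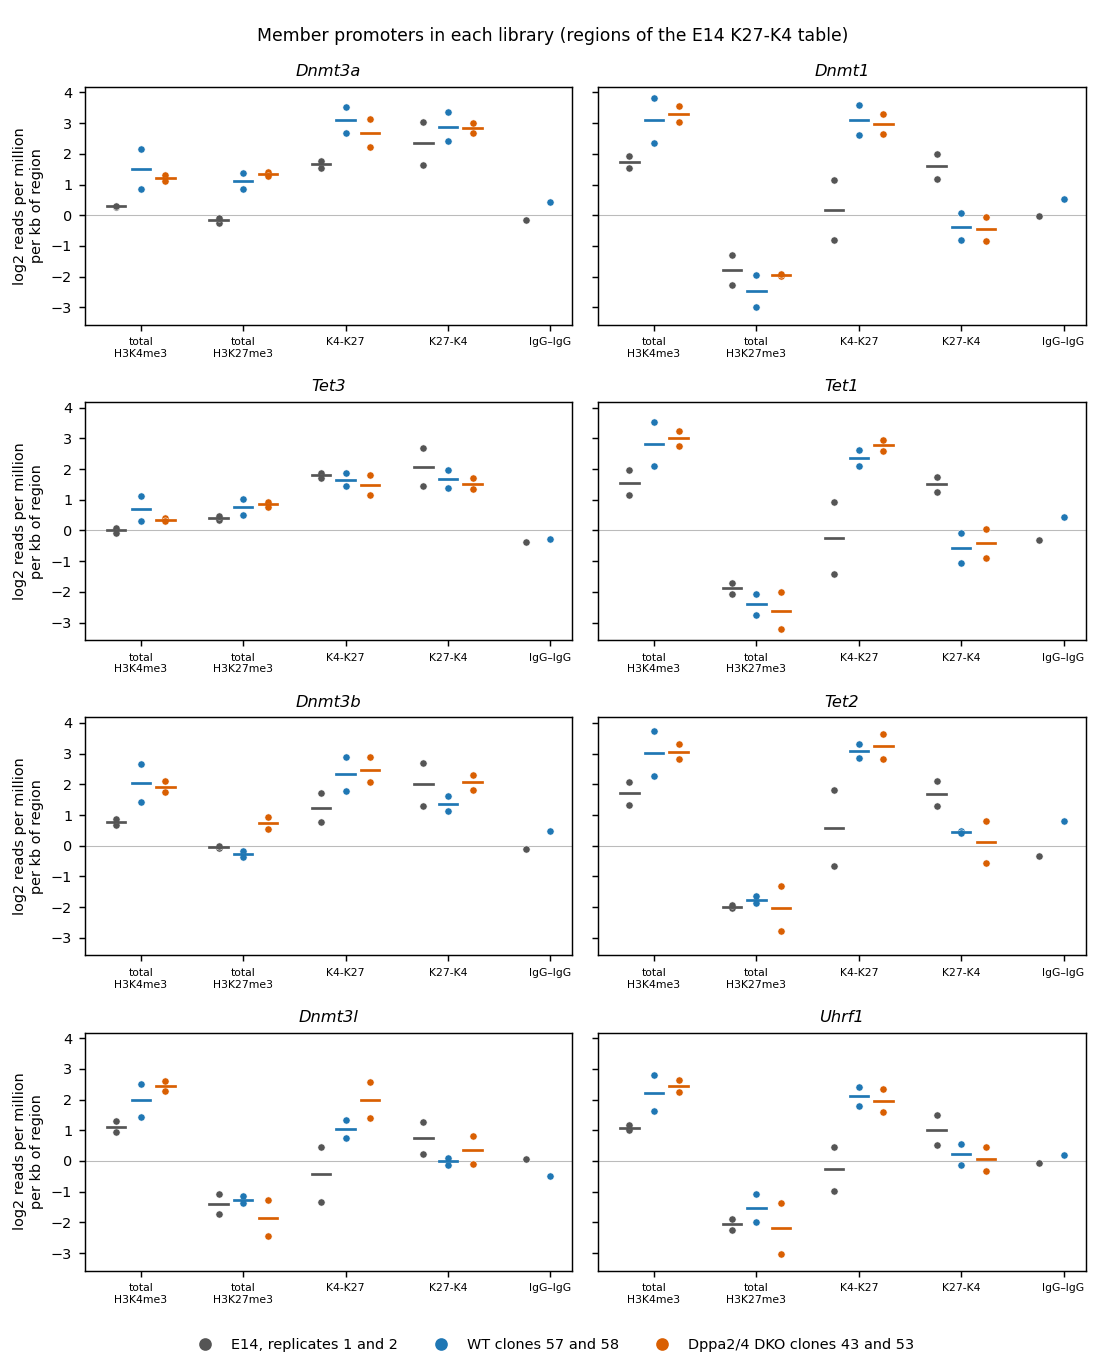
Level of each ChIP at the 8 promoters, in log2 RPM per kb of region, over the regions of the E14 K27-K4 table. Points are single libraries, bars are means of 2 libraries, and grey, blue and orange stand for E14 cells, WT clones and DKO clones. At Dnmt3a, Dnmt3b and Tet3 all reChIP values lie above IgG–IgG, whereas at Dnmt1 the clone values of K4-K27 (2.61 to 3.60) and K27-K4 (−0.84 to 0.08) lie far apart.

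In the clones Dnmt3a had more total H3K27me3 at its upstream start sites than at its internal one, and was above IgG–IgG at the upstream sites only. In E14 cells its total H3K27me3 was below IgG–IgG at both the upstream and the internal sites. These were compared over the regions of the E14 total H3K4me3 table. At chr12:3805801-3809250, which holds the start sites at 3806980 and 3807160, total H3K27me3 was −0.82 and −0.80 in E14 cells, 1.72 and 1.14 in WT and 1.73 and 1.89 in DKO clones, with IgG–IgG at 0.24 and 0.79, and K27-K4 was 2.61 and 4.28 in E14 cells, 4.61 and 3.57 in WT and 4.18 and 3.80 in DKO clones. At chr12:3890551-3894750, around the start site at 3891744 inside the gene, total H3K27me3 was −1.23 and −1.64 in E14 cells, −1.27 and −1.18 in WT and −1.22 and −1.06 in DKO clones, with IgG–IgG at −0.40 and 0.16. There K27-K4 was 0.64 and 1.80 in E14 cells, −0.15 and −1.26 in WT and 0.11 and 0.14 in DKO clones. Total H3K4me3 overlapped between the 2 places, with 3.55 and 2.08 at the upstream and 2.93 and 1.64 at the internal region in WT clones. The upstream start sites are the CG-dense ones of the sequences above. In limma over the E14 K27-K4 regions, total H3K4me3 exceeded total H3K27me3 at the internal site, chr12:3890551-3895950, by 3.18 ± 0.71 (SE, n = 2 per ChIP, adjusted p = 3.092e-05) in WT clones, and at the upstream region by 0.39 ± 0.77 (adjusted p = 0.7323). The difference between the 2 sites was not tested.

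Both start sites of Tet3 were high in either reChIP order, and the upstream one had the higher mean level in E14 cells and in the clones. Around the start site at 83456392, over chr6:83453701-83458050, K4-K27 was 2.94 and 3.31 in E14 cells, 4.08 and 3.29 in WT and 3.82 and 2.87 in DKO clones, and K27-K4 was 3.02 and 4.62, 3.98 and 3.13, and 3.41 and 3.00. Around the downstream start site at 83441678, over chr6:83440501-83442900, K4-K27 was 1.69 and 2.64 in E14 cells and 3.00 and 1.85 in WT clones, and K27-K4 was 2.21 and 3.78, and 2.06 and 1.74. Total H3K27me3 there was −0.30 and −0.21 in E14 cells, 0.82 and −0.64 in WT and 0.79 and 0.74 in DKO clones, and total H3K4me3 was higher in every library pair at 1.59 and 1.43, 2.92 and 1.58, and 2.28 and 1.92. At the upstream site total H3K27me3 was 0.87 and 0.54, 1.88 and 1.31, and 1.67 and 1.67, and total H3K4me3 was 0.83 and 0.96, 2.98 and 1.89, and 1.84 and 1.83, so that the marks overlapped there in E14 cells and H3K4me3 was the higher within each clone.

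**Figure D2:**
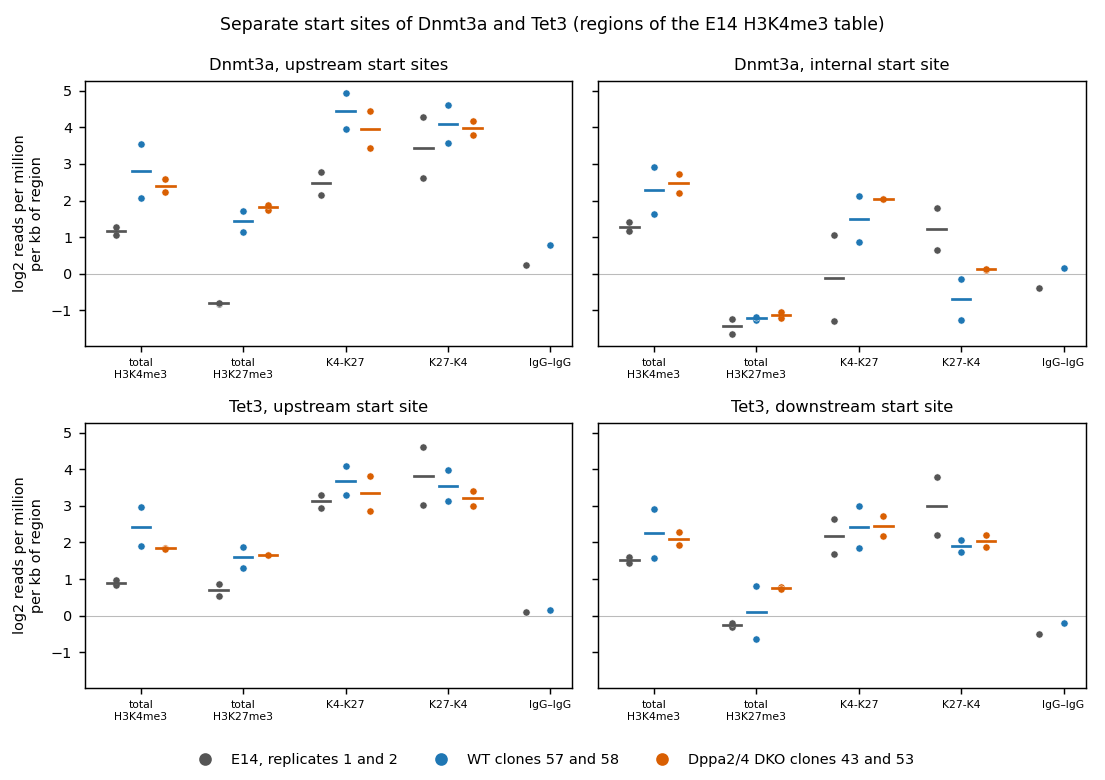
The same levels at separate start sites of Dnmt3a and Tet3, over regions of the E14 total H3K4me3 table, in log2 RPM per kb. Points are libraries and bars are means of 2. The internal Dnmt3a site keeps total H3K4me3 (2.93 and 1.64 in WT clones) with total H3K27me3 of −1.27 and −1.18.

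The first comparison asked which mark prevailed at each promoter. In E14 cells, over 21857 regions listed in both E14 reChIP tables, total H3K4me3 was higher than total H3K27me3 by more than 1 on the log2 scale at an adjusted p under 0.05 (limma, Benjamini-Hochberg) at 3 of the 6 members with such a region, beside 44.3% of all regions. These were Dnmt1 (3.52 ± 0.32 SE, adjusted p = 1.847e-06), Tet2 (3.70 ± 0.31, 1.59e-06) and Uhrf1 (3.15 ± 0.38, 8.718e-06), with 2 replicates per ChIP. Over the 36235 regions of the E14 K27-K4 table the call was also made for Tet1 (3.45, limma adjusted p = 2.104e-05) and Dnmt3l (2.52, 7.271e-05), so 5 of 8 members were called against 40.2% of regions. Dnmt3b differed by 0.80 with an interval of 0.46 to 1.13, under the limit of 1. The differences of Dnmt3a, 0.46 (95% interval −0.02 to 0.94), and Tet3, −0.40 (−0.80 to −0.0043), were not called. These 2 values depend on the width of the region: over the narrower E14 total H3K4me3 regions, where no test was run, the E14 totals at the upstream Dnmt3a sites were 1.07 and 1.27 for H3K4me3 against −0.82 and −0.80 for H3K27me3, and at the upstream Tet3 site 0.83 and 0.96 against 0.87 and 0.54. Centring each library on its median lowered all of these differences by 0.87, which turned the sign for Dnmt3a and Dnmt3b and brought Tet3 to −1.27 with a call (limma adjusted p = 4.261e-06).

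In WT clones 6 of the 8 members were called higher in total H3K4me3 than in total H3K27me3, beside 37.4% of the 36235 regions. The differences were 5.57 at Dnmt1, 5.22 at Tet1, 4.78 at Tet2, 3.75 at Uhrf1, 3.23 at Dnmt3l and 2.30 at Dnmt3b, with SE between 0.65 and 0.74 and limma adjusted p of at most 0.005771. Dnmt3a gave 0.39 (95% interval −1.12 to 1.91) and Tet3 −0.05 (−1.48 to 1.38). Dnmt3a and Tet3 were thus the 2 members not called in E14 cells and in WT clones alike, together with Dnmt3b in E14 cells. Total H3K4me3 was higher in clone 57 than in clone 58 at all 8 promoters, and also at the typical region. Over 64063 regions of the WT and DKO tables, the median DKO minus WT difference was 0.63 without clone 57 and −0.43 without clone 58.

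The second comparison set the reChIP orders side by side, since a promoter carrying both marks should be recovered in either order. In E14 cells K27-K4 exceeded K4-K27 at all 6 members tested, by 0.27 at Tet3 to 1.43 at Dnmt1, but none was called in limma, where 0% of regions were and 55 of 21857 regions had an unadjusted p under 0.05, all of them higher in K27-K4. The E14 replicates share a sequencing batch by number, and with the replicate block Dnmt1 (1.43, limma adjusted p = 0.02568) and Tet2 (1.12, 0.04516) were called, as were 6.97% of regions. Over all regions of the K27-K4 table, 4.80% of regions were called higher with the block, among them Dnmt1 again. Tet1 (1.75, limma adjusted p = 0.01526) passed there too, but it has no region in the E14 K4-K27 table and entered only through the order in which it was higher, so its value is a description. The median promoter was itself higher in K27-K4 by 0.83.

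In the clones K27-K4 was the lower of the orders at most members, as it was at the median gene promoter, by −1.26 in WT and −1.10 in DKO clones. In WT clones K27-K4 was called below K4-K27 at 4 of 8 members, beside 21.8% of regions: Dnmt1 by −3.47 ± 0.52 (SE, limma adjusted p = 2.062e-09), Tet1 by −2.93 ± 0.52 (3.562e-07), Tet2 by −2.64 ± 0.53 (6.904e-06) and Uhrf1 by −1.89 ± 0.51 (0.001505). Within single clones the Dnmt1 difference was −4.42 in clone 57 and −2.53 in clone 58. Dnmt3b differed by −0.97 (95% interval −2.01 to 0.07) and Dnmt3l by −1.04 (−2.09 to 0.01). Dnmt3a and Tet3 gave −0.23 (−1.45 to 0.99) and 0.04 (−0.99 to 1.06), with single-clone differences of −0.19 and −0.28 and of 0.12 and −0.04. In DKO clones 5 of 8 members were called lower, beside 23.8% of regions. These were Dnmt1 (−3.44), Tet1 (−3.19), Tet2 (−3.13), Uhrf1 (−1.91) and Dnmt3l (−1.63), with limma adjusted p between 3.061e-06 and 0.01072. Dnmt3b differed by −0.41, Dnmt3a by 0.17 and Tet3 by 0.04. Among gene promoters Dnmt1 stood at percentile 2.61 of this difference in WT and 2.70 in DKO clones, whereas Uhrf1 (39.4 and 37.3) and Dnmt3l (42.0 in DKO) were near the middle. The WT call of Uhrf1 and the DKO call of Dnmt3l were lost without the variance trend and robust estimation (limma adjusted p = 0.06013 and 0.1001). The internal Dnmt3a site was called lower in K27-K4, with −1.91 ± 0.58 in WT (limma adjusted p = 0.005427) and −1.77 ± 0.40 in DKO clones (0.001063). Its difference from the upstream region was not tested.

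Whether these order differences varied with genotype was tested directly. The interaction of genotype and orientation was called at 0 of 8 members and 0% of regions in limma, where 765 regions had an unadjusted p under 0.05 with a positive and 635 with a negative difference. The member estimates ran from −0.59 at Dnmt3l to 0.56 at Dnmt3b, and all 8 intervals included 0, the widest being that of Dnmt3a at −1.14 to 1.96.

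**Figure D3:**
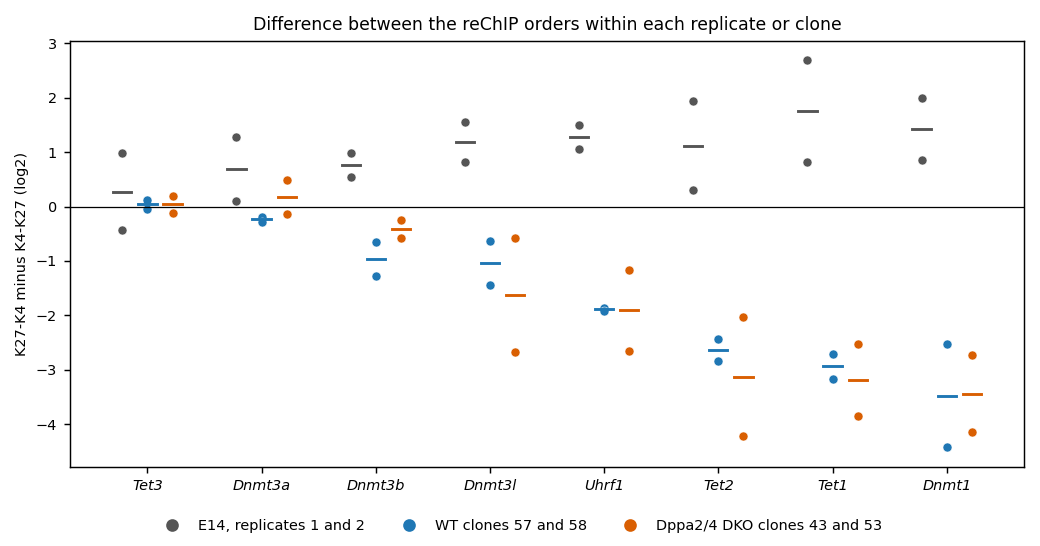
K27-K4 minus K4-K27 (log2) at each promoter, within each E14 replicate or clone. Points are single replicates or clones and bars are means of 2. Differences in the clones run from 0.48 at Dnmt3a in DKO clone 53 to −4.42 at Dnmt1 in WT clone 57, while 15 of the 16 E14 values lie above 0.

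The third comparison asked whether loss of DPPA2 and DPPA4 altered these promoters, and no member was called in any ChIP. Regions of the WT and DKO tables were tested. For K4-K27, 0 of 8 members were called beside 1.19% of regions, with differences from −0.49 at Dnmt3a (95% interval −1.83 to 0.85) to 0.97 at Dnmt3l (−0.29 to 2.22). For K27-K4, 0 of 4 members were called beside 2.26% of regions, with Dnmt3l at 0.98 (−0.05 to 2.01, limma adjusted p = 0.2905), Dnmt3b at 0.73 (−0.15 to 1.62), Dnmt3a at −0.04 and Tet3 at −0.35. Dnmt3l and Dnmt3b had K27-K4 regions in the DKO table alone, so they entered through the genotype in which they were higher, and the Dnmt3l region, chr10:78042001-78043800, lies at another start site than its K4-K27 region, chr10:78048601-78053250. Over the E14 K27-K4 region of Dnmt3l the K27-K4 difference was 0.36 (−0.40 to 1.13). For total H3K4me3, 0 of 8 were called beside 2.72% of regions, and the lowest was Tet3 at −0.64 (−2.29 to 1.01). For total H3K27me3, 0 of 3 were called beside 2.75% of regions. Dnmt3b was the highest at 0.95 ± 0.41 (SE, interval 0.13 to 1.76, limma adjusted p = 0.2215), from 0.22 and −0.05 in WT to 1.24 and 0.83 in DKO clones. This Dnmt3b region was listed in the DKO table alone, so it too entered through the genotype in which it was higher. Over the E14 K27-K4 regions all 8 members could be tested in each ChIP and 0 were called, with Dnmt3b total H3K27me3 at 1.01 (0.37 to 1.66, limma adjusted p = 0.08744). Most intervals extend beyond 1 on at least 1 side, so a change of that size was not detectable with 2 clones per genotype.

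**Figure D4:**
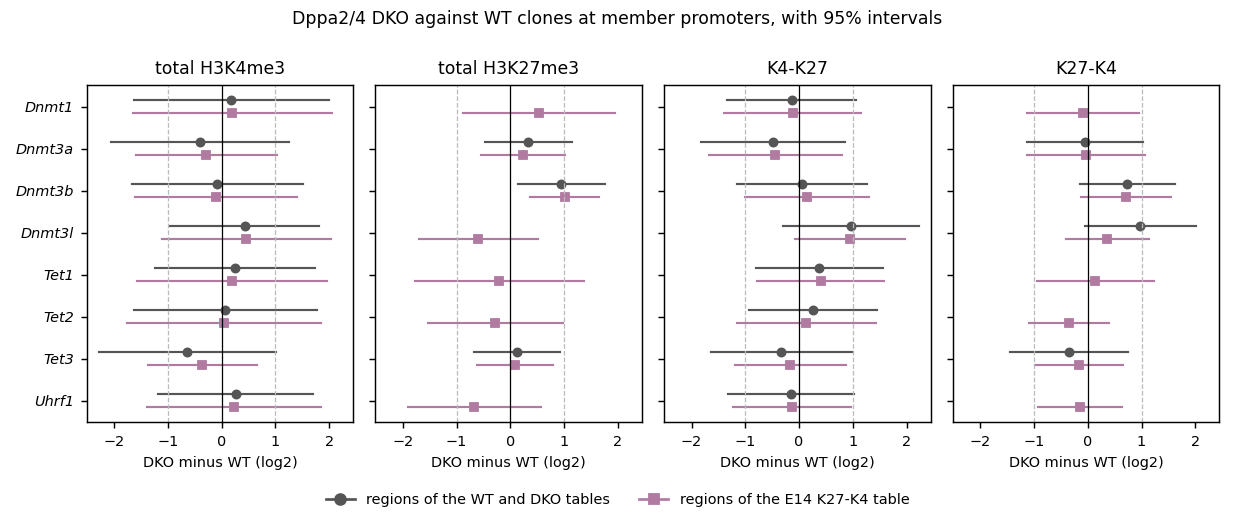
DKO minus WT (log2) at each promoter for the 4 ChIPs, with 95% intervals from limma, over regions of the WT and DKO tables (circles) and of the E14 K27-K4 table (squares). Dashed lines mark a difference of 1. Dnmt3b total H3K27me3 (0.95 and 1.01) and Dnmt3l reChIPs (0.97 for K4-K27 and, at another start site, 0.98 for K27-K4) are the largest of the estimates. The values of 0.95 and 0.98 come from regions listed for that ChIP in the DKO table alone.

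A list of 28 further genes of DNA methylation (maintenance partners, readers of methylated DNA, repair and removal factors, regulators and Trdmt1) was counted in the same way. None was called in DKO against WT clones in limma, among 26 tested for K4-K27, 12 for K27-K4, 26 for total H3K4me3 and 6 for total H3K27me3. In WT clones K27-K4 was called below K4-K27 at 17 of 27, beside 21.8% of all regions, and total H3K4me3 above total H3K27me3 at 19 of 27, beside 37.4%. The median order difference of the list was −2.26, with −0.09 over all regions and −1.26 over gene promoters. H3K27me3 regions were listed at 1 of the 28 in E14 cells, 4 in WT and 6 in DKO clones.

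Over the E14 K27-K4 regions Dnmt3a had the highest and Dnmt3l the lowest mean E14 reChIP value of the members. Over the E14 total H3K4me3 regions the upstream Tet3 site was above Dnmt3a, with means of 3.13 against 2.47 in K4-K27 and 3.82 against 3.44 in K27-K4. Over the 8 E14 ChIP libraries, as enrichment over IgG–IgG, the promoters nearest to Dnmt3a among 17321 genes were those of Chrd and Thpo, which share 1 region, at a Euclidean distance of 0.23, and Kcna7 at 0.34. Those nearest to Dnmt3l were Adgre5 and Gm46046, both at 0.50, and Atg101 at 0.52.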

How the data were processed

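Values came from 12 deposited tables of regions with 26 libraries, 9 of E14 cells and 17 of clones. The authors aligned reads to mm10 (bwa, with duplicates marked by picard) and deposited log2 values from SeqMonk, of RPM per kb of region, where RPM are reads scaled to the size of the library, without subtraction of IgG–IgG. A region with 0 reads had been entered as 0.9 reads. The check for whole reads covered the lower values, apart from those entered for 0 reads. All of these were a whole number of reads within 0.1, which gave the number of reads behind the values of each library. The authors called peaks with EPIC2 in each replicate against IgG–IgG, filtered them on enrichment and a blacklist, and intersected replicates, and which of these sets each table lists is not given in the sources used here. The tables hold 32 columns of no sample in this series, which were not used.

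Start sites were those of curated RefSeq transcripts of GRCm38.p6. Regions were compared with limma 3.58.1 in R 4.3.3 (lmFit and eBayes, robust and with a trended prior variance) and Benjamini-Hochberg adjustment over all regions of a comparison, and called past a log2 difference of 1 at an adjusted p under 0.05. For DKO against WT, the distinct regions of the WT and DKO tables were pooled, so overlapping regions count separately. A count test had been planned in case of count files, and the log2 scale of the tables led to limma instead. Comparisons of the reChIP orders and totals in the clones, of start sites, and those over E14 K27-K4 regions were added after seeing the data. The fits were tested on simulated data and recovered only part of the shifts planted there, least for the E14 reChIP orders and, among DKO against WT, for K4-K27, so a member that was not called may still differ. Tables were handled in Python 3.11.15 with pandas 2.3.3 and numpy 2.4.6.

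The members and lists were chosen with earlier results of these data known. All 8 members are named; genes of the wider list are named when called in DKO against WT clones or absent from every reChIP table, and for the members with the highest and lowest mean E14 reChIP the 3 nearest promoters are named. A result that this rule would name is not reported here.

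E14 replicate numbers mark a shared sequencing batch and clone numbers a shared clone. The deviations of same-numbered libraries correlated at 0.19 between the E14 reChIPs, −0.12 between the E14 totals, 0.02 between the reChIPs of WT and of DKO clones, and −0.14 between the WT totals. E14 replicates were different passages, and p-values between clones measure the spread between 2 clones of a genotype.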

Additional observations from a re-analysis of the deposited data

Results flagged for a closer look

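At 6 promoters the difference between the reChIP orders was not the same in E14 cells and WT clones. The test was the interaction of cell source and orientation in limma over the 36235 regions of the E14 K27-K4 table with the replicate block, chosen after seeing the data, and it called these 6 of 8 members lower beside 27.4% of regions. K27-K4 minus K4-K27 was lower in WT clones than in E14 cells by −4.90 at Dnmt1, −4.68 at Tet1, −3.76 at Tet2, −3.17 at Uhrf1, −2.23 at Dnmt3l and −1.72 at Dnmt3b, on the log2 scale. In each of them both E14 replicates were above 0 and both WT clones below 0. Without the block 4 were called, and Dnmt3b (limma adjusted p = 0.3017) and Dnmt3l (0.1067) were not. The regions come from the E14 K27-K4 table, so they were chosen for being high in 1 of the 4 groups compared. None of the 6 has a region in the WT K27-K4 table, and Tet1 and Dnmt3l have none in the E14 K4-K27 table either. The choice of regions favours the direction that was called, and the values are a description. E14 and clone libraries were sequenced in separate batches, so the source of the cells and the batch cannot be told apart.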

How the results depend on the processing

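Counts of called regions over the whole tables moved with the processing, whereas no member was called in DKO against WT clones under any alternative run. For total H3K4me3 (1745 regions) library median centring gave 3899, dropping the lowest 25% of mean values 336, using only regions of the WT or of the DKO clones 829 or 137, and leaving out 1 clone 74 (without DKO 53) to 6018 (without WT 58). For total H3K27me3 (1468) the counts were 0 with centring, 314 without the lowest 25%, 326 on the log2(value + 1) scale, 675 and 0 with the WT and DKO tables, 627 over E14 K27-K4 regions, and 133 (without DKO 43) to 650 (without WT 57) on leaving out a clone. For K4-K27 (643) they were 7715 without the variance trend, 55 with the DKO table, 1164 over E14 K27-K4 regions and 243 (without DKO 53) to 558 (without WT 58). For K27-K4 (1341) they were 4072 on the log2(value + 1) scale, 85 with the DKO table, 2230 over E14 K27-K4 regions and 482 (without DKO 43) to 8630 (without WT 58). A lone clone was assumed to vary like the other genotype. The cause was not tested.

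In the paired analysis of the E14 reChIP orders the replicate block raised the called regions from 0 to 1523, and to 1740 over the E14 K27-K4 table. For E14 totals (10678) the count was 6307 on the log2(value + 1) scale and 16539 over the E14 K27-K4 table (16542 with the block). The block gave 10146 regions against 6726 for cell source by orientation, and changed no other call of a member than those given above. Centring moved the share of higher calls from 90.7% to 54.2% for E14 totals, from 88.7% to 52.5% for WT totals and from 7.0% to 18.2% for the WT orders (8.82% to 18.8% in DKO), with median shifts of −0.87, −0.90, 0.36 and 0.28, and of −0.68 for the E14 orders.

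Of the member results, 31 changed sign, none of them a call. Centring gave Dnmt3a −0.41 and Dnmt3b −0.066 for E14 totals, Dnmt3a −0.51 for WT totals, Tet3 −0.41 for E14 orders, Dnmt3a 0.12 for WT orders and Dnmt3a 0.13 for DKO against WT in K27-K4, where Tet3 was 0.14 over DKO regions. The others came from leaving out 1 clone in DKO against WT. In K4-K27 the lowest and highest values were −0.62 and 0.34 for Dnmt1, −1.0 and 0.026 for Dnmt3a, −0.55 and 0.66 for Dnmt3b, −0.15 and 0.66 for Tet2, −0.80 and 0.14 for Tet3, and −0.51 and 0.21 for Uhrf1. In K27-K4 they were −0.53 and 0.44 for Dnmt3a and −0.76 and 0.055 for Tet3, and in total H3K27me3 −0.14 and 0.39 for Tet3. In total H3K4me3 they were −0.56 and 0.91 for Dnmt1, −1.14 and 0.34 for Dnmt3a, −0.71 and 0.55 for Dnmt3b, −0.33 and 0.83 for Tet1, −0.64 and 0.78 for Tet2, and −0.22 and 0.74 for Uhrf1. With 2 clones per genotype, differences under about 1 could not be resolved at most promoters.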

Other observations

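The promoters of Dnmt1, Tet1, Tet2 and Uhrf1 in the WT clones had K4-K27 enrichment over IgG–IgG with little total H3K27me3. Their mean K4-K27 stood at percentiles 91.6, 60.0, 91.6 and 46.8 of gene promoters, so Tet1 and Uhrf1 were near the middle. The median gene promoter was itself lower in K27-K4 than in K4-K27 in WT clones, by −1.26. In WT clones the mean K4-K27 minus IgG–IgG was 2.59 at Dnmt1, 1.93 at Tet1, 2.28 at Tet2 and 1.93 at Uhrf1, and the mean K27-K4 minus IgG–IgG was −0.89, −1.0, −0.36 and 0.04 (n = 2 clones, with IgG–IgG from clone 57 alone). At Dnmt3l the corresponding values were 1.52 and 0.48, with mean total H3K27me3 minus IgG–IgG of −0.77. At Dnmt3a the values for the reChIP orders were 2.69 and 2.45, and at Tet3 1.93 and 1.97. The reference promoters gave the same contrast in K27-K4 minus K4-K27, with −2.45 at Gapdh, a housekeeping gene, and 0.08 at Pou4f1, a developmental regulator. Esrrb, a pluripotency gene, was high in both orders at its region of the E14 total H3K4me3 table, with K4-K27 of 4.06 and 3.59 and K27-K4 of 4.49 and 3.69 in WT clones. Klf4 was also high in both, with 3.74 and 3.25, and 3.44 and 2.83. The other pluripotency genes checked, Pou5f1, Nanog, Sox2, Zfp42 and Tfcp2l1, went the other way. At each of them both K4-K27 values of the WT clones lay above both K27-K4 values, as with 2.87 and 2.03 against −0.53 and −0.20 at Pou5f1.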
